A study of Coturnix japonica with 24 samples.

Results

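The 6 genes of neurotransmitter synthesis and vesicle loading described here were followed in the mediobasal hypothalamus of Japanese quail (Coturnix japonica) over the day in short and long days. They were TH and DDC (dopamine), GAD1, GAD2 and SLC32A1 (GABA) and SLC17A6 (glutamate). A gene was included if the array's annotation gave at least 1 probe set with its symbol as the only one, and all 6 of 6 listed genes had one, out of 13009 genes with such a probe set. They were represented by 12 probe sets, namely 5 for DDC, 2 each for GAD2 and SLC32A1, and 1 each for TH, GAD1 and SLC17A6. Of these, 9 probe sets of 5 genes passed the filter on dim signal and were tested. TH did not pass it.

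Dopamine is made from tyrosine by tyrosine hydroxylase (TH), the rate-limiting enzyme, followed by aromatic L-amino acid decarboxylase (DDC), which also serves serotonin synthesis. GABA is made from glutamate by the glutamate decarboxylases GAD67 (GAD1) and GAD65 (GAD2), and the vesicular GABA transporter (SLC32A1) loads it, and glycine, into synaptic vesicles. The vesicular glutamate transporter VGLUT2 (SLC17A6) marks glutamate neurons of the hypothalamus and thalamus. In the mammalian arcuate region, dopamine neurons hold back prolactin release and GABA neurons include those that make AGRP and NPY.

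The birds were males, 8 weeks old, that had spent 4 weeks in short days of 6 h of light and 18 h of dark. They then stayed there or were moved to long days of 20 h of light and 4 h of dark, in both cases for 2 weeks. No other treatment or genotype distinguished the groups. Tissue was taken at 6 zeitgeber times (ZT2, 6, 10, 14, 18 and 22, read here as hours after lights on), and each of the 12 groups had 2 arrays. RNA of 3 birds was combined for every array, which leaves the differences from bird to bird unmeasured. Because the probes were designed on chicken sequence, a quail transcript may hybridise weakly, and no gene's level is set against that of another gene. In pooled tissue, fewer cells of a type and less RNA per cell cannot be told apart.

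Values are probe set intensities after each array was scaled to a common median. Background was the 95th percentile of 746 probe sets without the chicken name prefix, and lay between 15.2 and 21.2. A change is the long-day minus the short-day mean of log2(intensity + 1.497), given ± limma's moderated standard error (SE), and p-values were adjusted over 28829 probe sets and read at a threshold of 0.05. Deviations after ± on intensities are standard deviations (SD, n = 12 arrays). Precision is limited by the number of arrays. Before scaling, replicate 1 exceeded replicate 2 in median intensity by 1.22 to 1.85 times in all 12 groups, so changes are also given within the arrays numbered 1 and those numbered 2. Of 13 hypothalamic markers on the array, 10 lay above background on 24 of 24 arrays, among them NKX2-1 and SIX3, while OTP did on 13 and SIX6 on 14. Of 5 markers of the telencephalon and thalamus, EMX2 lay above it on 24 arrays, GBX2 on 23, TCF7L2 on 13, LHX9 on 12 and TBR1 on 0. One array stood apart, replicate 2 of long-day ZT14. Its median Spearman correlation with the others was the lowest of all, at 0.72, and its log2 ratio of 3' to 5' signal was the highest for the actin control (2.21). For the GAPDH control it was at 0.368, hardly above replicate 2 of short-day ZT14 (0.364). The GAPDH ratio was higher in replicate 2 than in replicate 1 of every group. The summed intensity of 4 oligodendrocyte markers was 3017 on it and 6386 to 9085 on the other 23 arrays. Most of this sum was MBP, at 2506 on it and 5552 to 7880 on the others, and MOG was above background on 0 arrays. The sum therefore does not show a drop shared by the 4 markers.

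None of the 5 tested genes passed limma's test of long against short days over all times, against 0.142% of all probe sets (41 of 28829). At an unadjusted p under 0.05 there was 1 of 5, DDC, against 5.60% of all probe sets. Counted over the 9 tested probe sets there were 2, the other being the dimmer one of SLC32A1 (unadjusted p = 0.024, limma). The changes of the 5 genes ran from -0.66 for DDC to 0.495 for GAD1, with a median of 0.08, and that of all 11847 tested genes was -0.01.

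The TH signal could not be followed. Its intensity ran from 1.09 to 30.3 with a median of 2.77 in short days, and from 0.563 to 16.1 with a median of 1.62 in long days. Only 1 of 24 arrays exceeded background, replicate 2 of short-day ZT22 at 30.3, where the other array of that group was at 12.6. No change is therefore given for TH. The vesicular monoamine transporter SLC18A2, which loads dopamine into vesicles, was above background on 24 of 24 arrays. Its mean was 374 ± 76.1 under short days against 362 ± 90.5 under long days, and the log2 change was -0.06 ± 0.13 (adjusted p = 0.99, limma).

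DDC had the largest change of the 5 tested genes. In short days its brightest probe set had a lowest intensity of 53.6, a median of 81.4 and a highest of 125. In long days these were 39.3, 46.3 and 90.6. The ranges overlapped, but most long-day arrays lay under the lowest short-day array. The means were 83.4 ± 21.6 and 52.4 ± 16.2, a log2 change of -0.66 ± 0.17 with a 95% interval of -1.01 to -0.31 (unadjusted p = 6.4e-04, adjusted p = 0.196, limma). The p-value ranked 93 among the 28829 probe sets tested, and DDC did not pass. The change was -0.59 within the arrays numbered 1 and -0.73 within those numbered 2.

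The DDC mean was lower in long days at 6 of 6 times. At ZT2 the short-day arrays were at 125 and 84.6 and the long-day arrays at 46.4 and 43.9, the largest change, -1.16 ± 0.41. At ZT22 they were at 59.1 and 53.6 against 46.2 and 47.6, the smallest, -0.26 ± 0.41. The arrays of the photoperiods did not overlap at 5 of 6 times, ZT18 being the exception with 106 and 76.4 against 90.6 and 50.2. Of all tested probe sets, 0.215% had long-day arrays below short-day arrays without overlap at 5 or more times. At each single time this share, for either direction, ran from 29.3% at ZT14 to 34.3% at ZT22 (32.5%, 30.6% and 31.8% for the first 3 times and 33.6% for ZT18). None of the 5 genes passed limma's test, fitted without a replicate block, at any single time. Of all probe sets, 0.00694% did at ZT2, 0.0277% at ZT14, 0.0173% at ZT18 and 0.0139% at each of the other 3 times. At an unadjusted p under 0.05 there were DDC at ZT2, GAD2 at ZT10, and GAD2 and SLC32A1 at ZT14, where 4.17%, 4.70% and 5.55% of all probe sets were at these 3 times. Over the 9 tested probe sets, the dimmer SLC32A1 one at ZT2 and the second brightest DDC one at ZT14 were also below it. The short-day means were highest at ZT2 (105) and lowest at ZT22 (56.3), so that the difference between photoperiods was widest in the early light and narrowest before dawn, an order that was not significant in the interaction test (unadjusted p = 0.71).

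The other DDC probe sets did not follow the brightest one. The next was above background on 23 of 24 arrays, with medians of 55.1 in short days and 55.6 in long days and a change of 0.36 ± 0.31. This was -0.06 within the arrays numbered 1 and 0.78 within those numbered 2. The array not above background was replicate 2 of short-day ZT14, at 2.75, and the change at ZT14 was 1.62 ± 0.75. A change in the opposite direction on this probe set is thus not established. The third was above background on 7 of 24 arrays and had a change of 0.69 ± 0.42. The remaining 2 were above background on 0 arrays and were not tested. Across 24 arrays the brightest probe set correlated at r = 0.14 with the next and r = 0.08 with the third, as a description over arrays that share groups. The names of the brightest and the third one end in _s_at, which on these arrays marks probes that can match more than 1 transcript. Whether the brightest one measures DDC alone was not tested.

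**Figure D1:**
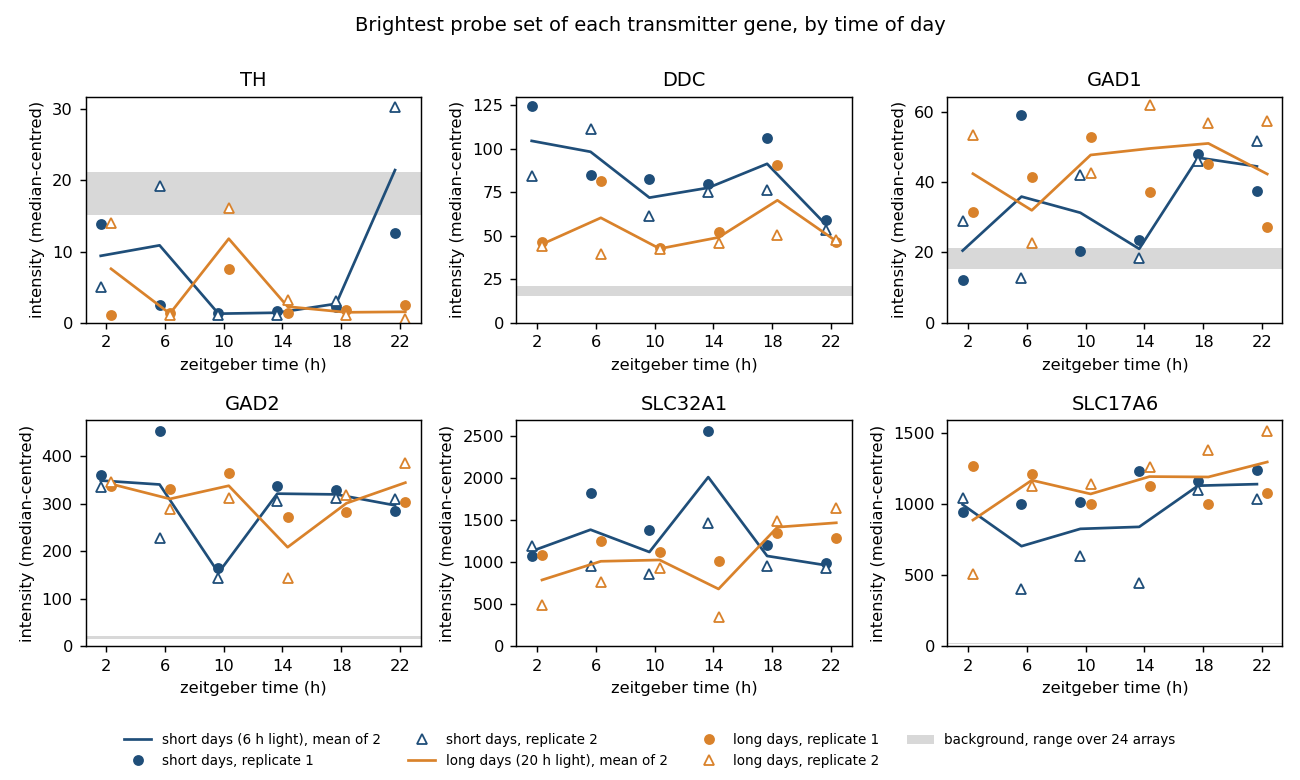
Intensity after median scaling (vertical axes) against zeitgeber time in hours (horizontal axes) for the brightest probe set of each gene, with filled circles for replicate 1, open triangles for replicate 2, lines through the means of 2 arrays and a grey band for background (15.2 to 21.2). TH lies at or under background except on 1 array, the DDC line for long days lies under that for short days at 6 of 6 times, and SLC32A1 has its highest short-day and lowest long-day mean at ZT14.

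Genes that serve dopamine and other catecholamines were read from a list of 14, of which 11 were on the array and tested. None passed in either direction in limma's photoperiod test. The median change was -0.07. MAOA, which breaks down monoamines, had the smallest p, at 227 ± 52.9 under short and 184 ± 52.3 under long days. Its change was -0.32 ± 0.15 (adjusted p = 0.87), with -0.55 and -0.09 within the arrays numbered 1 and 2. GCH1, which makes the first intermediate of the TH cofactor tetrahydrobiopterin, was at 0.34 ± 0.26, and SPR, the last enzyme of that path, at -0.22 ± 0.18. MAOB was at -0.13 ± 0.12. In the list of dopamine neuron factors and receptors, 0 of 11 tested genes passed and the median was -0.11, but only NR4A2, a factor needed by midbrain dopamine neurons in mammals, was above background on all 24 arrays, at 0.22 ± 0.17. The D3 receptor gene DRD3 had the smallest p of this list, at 47.7 ± 15.6 and 29.8 ± 14.2, a change of -0.76 ± 0.29 (adjusted p = 0.72), with -0.58 and -0.93 within the arrays numbered 1 and 2. FOXA1 was at 0.64 ± 0.37, EN1 at -0.73 ± 0.44 and DRD1 at -0.41 ± 0.29, on 7, 6 and 16 arrays above background.

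**Figure D2:**
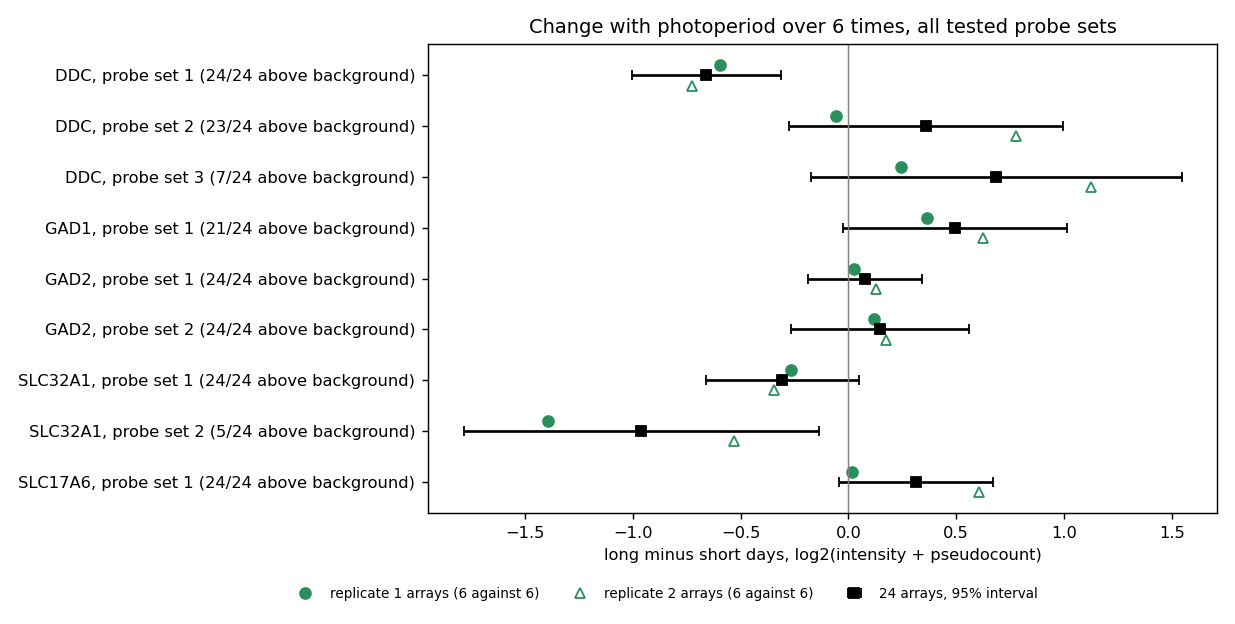
Change of the 9 tested probe sets (rows, numbered by brightness within a gene) from short to long days on the log2(intensity + pseudocount) scale (horizontal axis), as squares with 95% intervals over 24 arrays and as green symbols within the arrays of each replicate number. The interval of the brightest DDC probe set runs from -1.01 to -0.31 while the changes of the other 2 are 0.36 and 0.69, and SLC17A6 is at 0.02 within replicate 1 and 0.61 within replicate 2.

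The changes of the GABA genes differed in sign and size, and none passed the test. GAD1 had a lowest intensity of 12.1, a median of 33.2 and a highest of 59.2 in short days, and 22.6, 43.9 and 61.9 in long days. Its signal was weak, and 9 of the 12 arrays from short days and all 12 from long days exceeded background. The means were 33.4 ± 16.1 and 44.2 ± 12.7, a change of 0.495 ± 0.25 with an interval of -0.03 to 1.02 (adjusted p = 0.91, limma), and it was 0.37 and 0.62 within the arrays numbered 1 and 2. It was 0.32 without replicate 2 of short-day ZT6. The long-day mean was higher at 5 of 6 times. The widest gap was at ZT14, with 23.6 and 18.4 in short days and 37.3 and 61.9 in long days, a change of 1.15 ± 0.62. It was 0.79 there without replicate 2 of long-day ZT14.

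The GAD2 change over the day as a whole was close to 0. Its lowest, median and highest intensities were 144, 311 and 454 in short days and 145, 316 and 386 in long days. The change was 0.08 ± 0.13 with an interval of -0.19 to 0.34 (adjusted p = 0.99), and its sign turned, to -0.0049, without replicate 2 of short-day ZT6. The dimmer GAD2 probe set, above background on 24 arrays, was at 0.15 ± 0.20. At single times the arrays of the brighter probe set did not overlap at ZT10 and at ZT14, with changes of opposite sign. Of all tested probe sets, 31.8% did not overlap at ZT10 and 29.3% at ZT14, shares against which GAD2 is to be read. At ZT10 the short-day arrays were at 166 and 144 and the long-day arrays at 365 and 312, a change of 1.12 ± 0.31 (unadjusted p = 0.00161, adjusted p = 0.898, limma), and 1.13 and 1.11 within replicate numbers 1 and 2. At the other 5 times the short-day arrays lay between 228 and 454. The dimmer probe set was at 77.1 and 49.0 against 84.4 and 54.5 at ZT10, a change of 0.14 ± 0.49, so that the low short-day values at ZT10 were seen on 1 of 2 probe sets. At ZT14 the brighter one was at 337 and 306 against 273 and 145, a change of -0.69 ± 0.31 (adjusted p = 0.88, limma), and of -0.24 ± 0.34 without replicate 2 of long-day ZT14, the array that stood apart. Across 24 arrays the probe sets correlated at r = 0.33.

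SLC32A1 was at a lowest of 859, a median of 1132 and a highest of 2560 in short days, and at 349, 1105 and 1651 in long days. The change over all times was -0.31 ± 0.17 with an interval of -0.66 to 0.05 (adjusted p = 0.93, limma), and -0.27 and -0.34 within the arrays numbered 1 and 2. Without ZT14, a setting added after the data were seen, it was -0.03 (adjusted p = 0.998, limma). Without replicate 2 of long-day ZT14 alone it was -0.18. The long-day mean was also lower at ZT2, ZT6 and ZT10, with changes of -0.63 ± 0.42, -0.42 ± 0.42 and -0.09 ± 0.42. These and the changes above 0 at ZT18 and ZT22 all enter the value without ZT14. At ZT14 the short-day arrays were at 2560 and 1465 and the long-day arrays at 1016 and 349. These gave a change of -1.70 ± 0.42 (unadjusted p = 5.1e-04, adjusted p = 0.43, limma), with -1.33 and -2.07 within replicate numbers 1 and 2, and the smallest p of the 5 genes at any single time. At ZT18 and ZT22 the order was the other way round, with 1200 and 950 against 1348 and 1487 at ZT18 and 997 and 932 against 1288 and 1651 at ZT22, changes of 0.41 ± 0.42 and 0.60 ± 0.42. At ZT14, 29.3% of all tested probe sets had arrays that did not overlap between photoperiods, a share against which that of SLC32A1 there is to be read.

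The array at 349 is the one that stood apart. Without it the ZT14 change of SLC32A1 was -0.93, and without replicate 1 of the same group, which leaves that array to stand for long-day ZT14, it was -2.47. Each of these fits leaves 1 array in that group, so only the size is given. On that array the oligodendrocyte marker MBP was at 2506, and GAD2 at 145, against 273 on the other array of its group. GAD1 went the other way, at 61.9 against 37.3, and SLC17A6 was at 1258 against 1125. The summed level of the GABA transport and factor list was 814 on the array that stood apart, against 944 to 2994 on the other arrays. The brightest gene of that list was ABAT, with means of 854 in short and 734 in long days. The summed pan-neuronal markers were at 38131 on the array that stood apart, within the range of 29493 to 41778 on the others. The part of these differences in the SLC32A1 value was not tested. The dimmer SLC32A1 probe set was above background on 5 of 24 arrays, all of them in short days, and had changes of -0.96 ± 0.40 over all times (adjusted p = 0.82) and -0.54 ± 0.97 at ZT14.

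**Figure D3:**
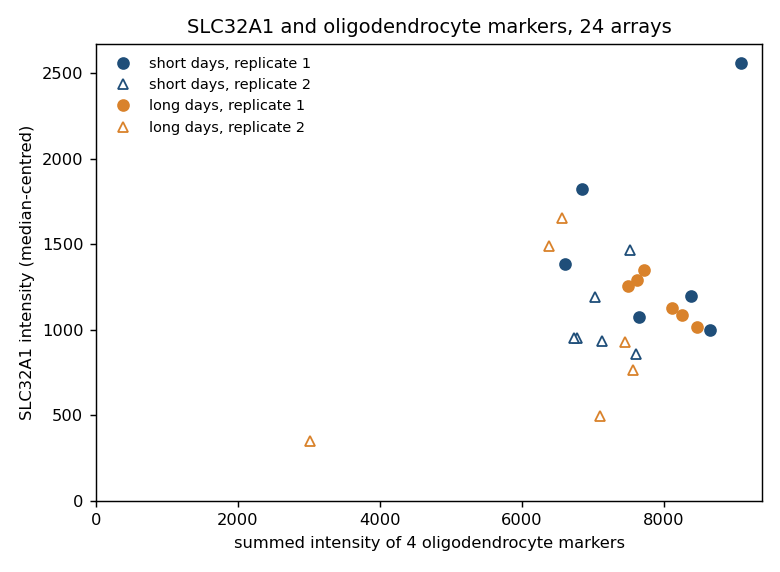
Intensity of SLC32A1 (vertical axis) against the summed intensity of 4 oligodendrocyte markers (horizontal axis) on 24 arrays, with colours for photoperiod and symbols for replicate number. Most of the summed intensity is MBP. Replicate 2 of long-day ZT14 lies apart at 3017 and 349, and the highest SLC32A1 value, 2560, belongs to replicate 1 of short-day ZT14.

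Of the other GABA genes, 8 of a list of 12 were on the array and 7 were tested, all above background on 24 arrays. None passed, and the median change was -0.18, with 5 of 7 below 0. The homeobox genes DLX1, DLX5 and DLX6, which specify forebrain GABA neurons, were at -0.26 ± 0.14, -0.18 ± 0.14 and -0.36 ± 0.21, and each was below 0 within both replicate numbers. The GABA transporter gene SLC6A11 was at 0.29 ± 0.17, and ABAT, which breaks down GABA, at -0.05 ± 0.24. The adjusted p values of these genes lay between 0.92 and 0.99.

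SLC17A6, the glutamate neuron gene, was at a lowest of 405, a median of 1026 and a highest of 1242 in short days and at 506, 1134 and 1512 in long days. The change was 0.31 ± 0.17 with an interval of -0.05 to 0.67 (adjusted p = 0.93, limma). It came from the arrays numbered 2, where it was 0.61 ± 0.24, against 0.02 ± 0.10 within those numbered 1. In short days the arrays numbered 1 lay between 947 and 1242, while those numbered 2 were at 405 at ZT6, 634 at ZT10 and 447 at ZT14. Replicate 2 of long-day ZT2 was low as well, at 506 against 1267 on the other array. The low values of SLC17A6 were thus found on 4 arrays of replicate number 2, in both photoperiods. The largest change at a single time, 0.87 ± 0.42 at ZT6 (1002 and 405 against 1209 and 1124), was 0.22 without the short-day array at 405. SLC17A6 has no other probe set with its symbol alone.

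Of 14 listed genes of glutamate transport and metabolism, 11 were tested and 0 passed in limma's photoperiod test, with a median of -0.01. SLC1A2, the glial glutamate transporter GLT-1, had the smallest p, at 31.9 ± 12.2 and 47.6 ± 12.6, a change of 0.60 ± 0.22 (adjusted p = 0.68), with 0.55 and 0.64 within replicate numbers. SLC1A3, the transporter GLAST of astrocytes and tanycytes, was at -0.07 ± 0.07, and GLUL, which makes glutamine from glutamate in glia, at 0.22 ± 0.18. SLC38A3, a glutamine transporter, was at -0.39 ± 0.21 and GOT1, a transaminase that makes glutamate, at 0.11 ± 0.14. SLC17A8 (VGLUT3) was above background on 2 of 24 arrays.

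**Figure D4:**
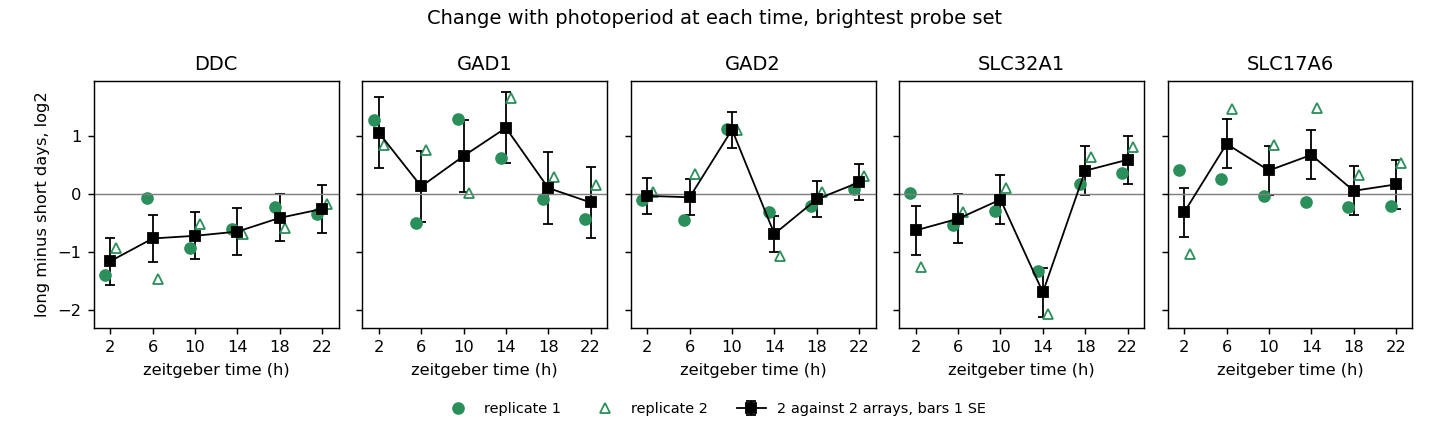
Change from short to long days on the log2 scale (vertical axis) at each zeitgeber time in hours (horizontal axis) for the brightest probe set of the 5 tested genes, as squares for 2 against 2 arrays with 1 SE and as green symbols within each replicate number. The DDC squares lie between -1.16 and -0.26, GAD2 stands out at ZT10 (1.12) and SLC32A1 at ZT14 (-1.70), and the SLC17A6 triangles of replicate 2 lie above the circles of replicate 1 at 5 of 6 times.

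The next comparison asked whether the genes followed the time of day. In limma's F test over 6 times, 0 of 5 passed in short days, where 0.0208% of all probe sets did, and 0 of 5 in long days, where 0% did. At an unadjusted p under 0.05 there was GAD2 in short days, against 3.77% of all probe sets, and SLC32A1 in long days, against 3.49%. These were their brighter probe sets. The dimmer one of each gene was at an unadjusted p of 0.92 in the same F test. The short-day means of GAD2 ran from 155 at ZT10 to 349 at ZT2. The highest and lowest means of SLC32A1 in short days were 2012 at ZT14 and 965 at ZT22, and in long days 1470 at ZT22 and 682 at ZT14. The latter includes the array that stood apart. Without it ZT14 was at 1016 and the lowest long-day mean was 790 at ZT2. Without it, too, the unadjusted p of SLC32A1 in long days was 0.096 in limma's F test. SLC17A6 was highest at ZT22 in both photoperiods, at 1139 and 1294, and GAD1 at ZT18, at 47.0 and 51.0.

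A cosine with a period of 24 h passed for 0 of 5 genes in either photoperiod, against 0.0277% of all probe sets in short days and 0% in long days, and for 0 of 5 at an unadjusted p under 0.05, against 4.68% and 4.13% of all probe sets. Of the 9 tested probe sets, 1 was below that p in short days, the second brightest of DDC. The log2 amplitudes were 0.16 ± 0.17 for DDC, 0.38 ± 0.25 for GAD1, 0.33 ± 0.15 for GAD2, 0.28 ± 0.20 for SLC32A1 and 0.39 ± 0.16 for SLC17A6 in short days. In long days they were 0.12, 0.27, 0.27, 0.32 and 0.17 in the same order, with the same errors. The question of whether the photoperiods differed in their course over the day was put to the interaction test, which 0.00694% of all probe sets passed. None of the 5 genes did (adjusted p near 1 for each). The brighter probe sets of SLC32A1 and GAD2 were below an unadjusted p of 0.05, as were 3.35% of all probe sets. Their dimmer probe sets were not, at unadjusted interaction p of 0.32 for SLC32A1 and 0.97 for GAD2 (limma). Without replicate 2 of long-day ZT14 the interaction p of the brighter ones, also unadjusted and from limma, was 0.062 for SLC32A1 and 0.034 for GAD2.

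Pairs of the 5 genes were correlated weakly or moderately. Across 24 arrays, as a description over arrays that share groups and scaling, the highest correlations on the log2 scale were 0.48 between GAD2 and SLC32A1 and 0.42 between GAD1 and SLC17A6. The lowest were -0.47 between DDC and GAD1 and -0.26 between DDC and SLC17A6. GAD1 and GAD2, which encode enzymes of the same reaction, correlated at 0.11. GAD1 and SLC32A1 correlated at -0.19, although both serve GABA neurons. The correlation of GAD2 with SLC32A1 was 0.17 within the arrays numbered 1 and 0.55 within those numbered 2. The latter include the array that stood apart, replicate 2 of long-day ZT14, where SLC32A1 was at 349 and GAD2 at 145. Its part in the correlations was not tested.

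For each gene the 3 genes with the most similar course were taken by Pearson correlation of the 12 group means among 8766 other genes, and r values are descriptions. They were TLK2, PLA2G6 and TM4SF18 for DDC (r from 0.92 to 0.86) and GAB2, CATH1 and BSX for GAD1 (0.87 to 0.84). For GAD2 they were LOC421583, PDXDC1 and LOXL1 (0.94 to 0.93), for SLC17A6 EHHADH, RPL38 and LOC396380 (0.92 to 0.87), and for SLC32A1 TCP11X2, ACTR5 and LY75 (0.90 to 0.89). Over the 24 single arrays some of these values were far lower. They were -0.01 for SLC17A6 with RPL38, and 0.23 with CATH1 and 0.29 with GAB2 for GAD1, while GAD2 with PDXDC1 kept 0.82. The 3 highest of 8766 values over 12 means are high in part through that choice, by an amount that was not tested.

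Markers of neurons in general give a frame for these values. Of 13 tested pan-neuronal genes 0 passed, with a median of 0.004. The broadly expressed SNAP25, of the vesicle fusion machinery, was at 0.05 ± 0.09 and the neuronal enolase ENO2 at 0.004 ± 0.07. STMN3, a regulator of microtubules, had the smallest p (0.54 ± 0.17, adjusted p = 0.52), with 0.15 and 0.92 within replicate numbers 1 and 2, and SYN2, a synaptic vesicle protein, was at 0.29 ± 0.11 (adjusted p = 0.70). MAP2 was at -0.17 ± 0.09. Summed over the pan-neuronal list, arrays ran from 29493 to 39513 in short days and 30628 to 41778 in long days. Among markers of other cell types, FABP7 of tanycytes and astrocytes (-0.95 ± 0.14, adjusted p = 6.6e-04) and POMC (-1.04 ± 0.14, adjusted p = 1.6e-04, limma), which is in both the pituitary and the hypothalamic list, fell in long days. No tested gene of the oligodendrocyte, microglia, telencephalon and thalamus, or endothelium and choroid plexus lists passed. The part of these cells in the changes of the 5 genes was not tested. For other transmitters 0 of 8 tested genes passed, with a median of -0.05. Among them, the high-affinity choline transporter SLC5A7 was at 0.30 ± 0.17 and the vesicular acetylcholine transporter SLC18A3 at 0.43 ± 0.30. HDC, the enzyme that makes histamine, was at -0.09 ± 0.19 and the neuronal glycine transporter SLC6A5, above background on 2 of 24 arrays, at -0.76 ± 0.36. TPH2, the serotonin enzyme of neurons that precedes DDC in that pathway, was above background on 6 of 24 arrays. TPH1, of the same list, was above it on 17 of 24 arrays, with means of 23.8 in short and 26.1 in long days.

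**Figure D5:**
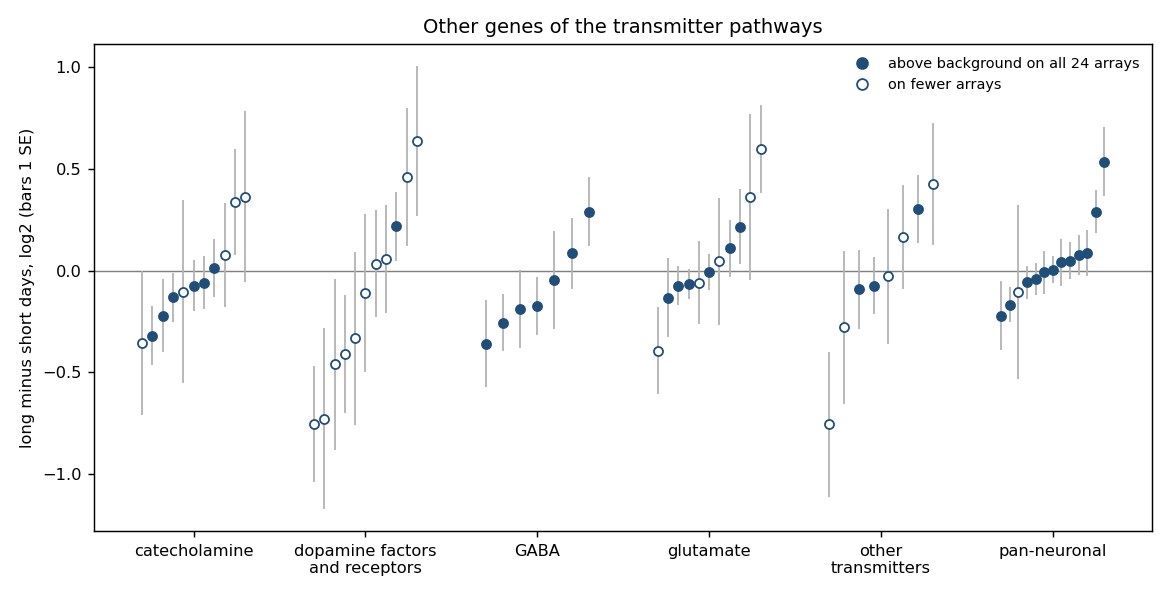
Change from short to long days on the log2 scale (vertical axis, bars 1 SE) of the tested genes of 6 lists (horizontal axis), sorted within each list, with filled points for genes above background on all 24 arrays. None passed limma's test, the largest sizes belong to genes that were at background on some arrays, and the pan-neuronal points lie between -0.22 and 0.54.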

How the data were processed

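The deposited table held linear intensity values per probe set (0.0275 to 13690) for 24 Affymetrix chicken arrays of biotin-labelled cRNA, and the submitters' processing notes name GCOS 1.2. Its algorithm and scaling target were not stated there. Array medians differed by up to 1.93 times, so each array was scaled to the overall median of 14.97, a pseudocount of 10% of it was added, and log2 was taken. Of 38535 probe sets, 96 controls and the lowest 25% by mean were left out, which left 28829. A gene was represented by its brightest probe set. The annotation can be old, and a table of Coturnix japonica genes holds all 6 symbols. limma 3.58.1 (R 4.3.3) was fitted with a mean for each of 12 groups (12 residual degrees of freedom), and with a 24 h cosine and sine per photoperiod, by eBayes with a trend and Benjamini-Hochberg adjustment. Errors of amplitudes are the mean SE of the cosine and sine terms. Fold sizes of dim genes are understated. The 2 arrays of a group are called biological replicates in the labels. The p-values measure the spread between these 2 arrays. Without a replicate block, that spread holds any difference between replicate numbers as well as that between pools. The fits were tested on simulated data. Figures used matplotlib 3.10.9.

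The genes, the lists and the rule for named genes (from each list those past a test, otherwise up to 4 with the smallest p) were chosen with earlier results of these data known. NR4A2, ABAT, SNAP25, ENO2, SLC17A8, GOT1, HDC, TPH1, SLC18A2 and the tissue and oligodendrocyte markers are named outside that rule. The alternatives changed the pseudocount, the normalization (quantile or none), the filter, the variance model or the weights of arrays, blocked on replicate number, or used fewer arrays (each array left out, each replicate number alone) or other probe sets. Adding the pseudocount before centring and leaving ZT14 out of the mean were added after the data were seen. No sequence of the genes was at hand, so none is shown.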

Additional observations from a re-analysis of the deposited data

How the results depend on the processing

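No tested gene passed the photoperiod test over all times, a time of day test, a cosine test or the interaction test under any of the 39 alternative fits run for the first and 36 for the others. At ZT14 the number of the 5 genes called was 0 in the main fit. Among fits that kept 2 arrays in every group, it became 1, SLC32A1, only with the replicate number as a block (-1.70, limma's adjusted p = 0.047). Of all 28829 probe sets, 8 were called there in the main fit and 14 with the block. Without replicate 1 of long-day ZT14, which leaves 1 array in that group, the SLC32A1 change was -2.47. The correlation of deviations between groups was weak, from 0.01 to 0.09 over 66 pairs of groups, all above 0 and none above 0.1. Replicate 1 was the brighter before scaling in all 12 groups, and the block lowered the SE of SLC32A1 at ZT14 from 0.42 to 0.32. Whether the replicate numbers mark sets of arrays handled together was not tested. The SLC32A1 change at ZT14 was -1.70 with and without the block, and only its SE and p differed. The source of the difference between replicate numbers was not tested. The DDC change ran from -0.74 to -0.54 over 39 alternatives, with limma's adjusted p from 0.073 (replicate block) to nearly 1 (no centring). On its other probe sets the change was 0.36 and 0.69, and at ZT2 it was 0.28 on the third. The 0.36 was -0.06 and 0.78 within replicate numbers 1 and 2. The GAD2 change turned to -0.0049 without replicate 2 of short-day ZT6, its range over the settings without 1 array being -0.0049 to 0.16. For the other 3 genes the direction held in every alternative fit, with changes of 0.32 to 0.67 for GAD1, 0.02 to 0.61 for SLC17A6 and -0.43 to -0.03 for SLC32A1, whose other probe set was at -0.96. The number of all probe sets called over all times, 41, ran from 12 without centring to 78 with the replicate block. At ZT14 that number was 8 in the main fit, 3 without centring and 14 with the block, all with 2 arrays per group. It moved further in some fits without 1 array of ZT14. There 1 array stands for a group, so those counts are not given. Signals near background, as for TH and the dimmer probe sets of DDC and SLC32A1, limit what can be measured.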
